A study of Mus musculus with 18 samples.

Results

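Arginine transport and metabolism was followed through 8 genes in tumors of 4T1 cells, a mouse triple-negative mammary carcinoma line. The members were the carriers Slc7a2 and Slc7a1, the arginases Arg1 and Arg2, the inducible nitric oxide synthase Nos2, the arginine-forming enzymes Ass1 and Asl, and the ornithine decarboxylase Odc1. They are 8 of the 22792 genes counted, and all 8 were among the 15282 genes with enough counts to be tested. The set was selected on its values: it was picked because Slc7a2 was higher after the SHP2 inhibitor than after vehicle. For that reason the comparison of SHP2i with Vehicle is given for the members as a description, with no test, and Slc7a2 was tested only between Combo and PI3Ki, whose tumors were not used to pick it.

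For the experiment, 300000 4T1 cells in PBS were placed in the mammary fat pad of female Balb/c mice aged 8 weeks. Treatment ran from day 7, and the tumors were taken on day 21. RNA of 18 tumors was sequenced: 5 from mice given the vehicle alone (Vehicle), 4 from mice on CLR457, a PI3K inhibitor (PI3Ki), 4 from mice on SHP099, which inhibits SHP2 (SHP2i), and 5 from mice on both compounds (Combo). All groups shared the cell line, the strain and the site of injection. Each library was made from a whole tumor, so a lower level can stand for fewer cells of a type or for less RNA per cell, and these cannot be told apart.

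Arginine enters cells mainly through the cationic amino acid carriers, of which Slc7a1 serves most tissues and Slc7a2 is known from liver, muscle and activated macrophages. Inside the cell, Arg1 and Arg2 split it into ornithine and urea, Nos2 turns it into nitric oxide and citrulline, and Ass1 followed by Asl rebuilds arginine from citrulline. Ornithine made by arginase feeds Odc1, the first enzyme of polyamine synthesis, and in tumors Arg1 and Nos2 are best known from myeloid cells.

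Between 21.16 M and 26.62 M counts were assigned per library (median 23.52 M). The smallest count of any member in any tumor was 211, for Slc7a2, so no member was near 0. The 7 epithelial markers summed to 659 to 1374 CPM (counts per M counts, TMM scaled) across all tumors, with Krt5 at 0 in some. All 4 PI3Ki tumors carried skeletal muscle transcripts, with 10 markers that summed to 826 to 1986 CPM against at most 105 CPM in any tumor of the other groups.

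How far the counts of related genes can be told apart was read from the transcripts (GENCODE M21, GRCm38). The paralogs Slc7a1 and Slc7a2 had no 50-base word in common. For Arg1 and Arg2 the longest identical coding run was 12 bases. That run, in capitals, is shown with 20 bases on each side because it marks the limit of what a read could share between the arginases.
Arg1: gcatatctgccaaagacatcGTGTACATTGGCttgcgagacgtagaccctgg
Arg2: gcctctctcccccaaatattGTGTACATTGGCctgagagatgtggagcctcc
Ass1 is different. Its coding sequence of 1236 bases differed from the transcribed pseudogene Gm5424 (chr10:62071022-62072571) at 6 bases, an identity of 99.5%. A stretch of 120 bases of both is shown, with the 2 differing bases in capitals, because a read that misses these bases fits both genes.
Ass1: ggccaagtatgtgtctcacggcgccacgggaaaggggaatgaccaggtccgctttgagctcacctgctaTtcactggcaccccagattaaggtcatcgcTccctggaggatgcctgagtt
Gm5424: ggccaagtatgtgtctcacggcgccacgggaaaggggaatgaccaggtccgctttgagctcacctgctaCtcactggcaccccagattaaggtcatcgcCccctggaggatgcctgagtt

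Gm5424 took 29.9% to 32.9% of the summed counts of Ass1 and Gm5424 in every tumor, so Ass1 values are uncertain in size. Odc1 shared 24.3% of its 50-base words with the processed pseudogenes Gm7993, Gm17709 and Gm9115, which have no row in the count tables. The exons of Arg2 (chr12:79130788-79156301) overlap Vti1b and the antisense gene Gm48780, and those of Slc7a2 (chr8:40862341-40922070, plus strand) overlap Gm26584. Arg1 (chr10:24915207-24927470) and Odc1 (chr12:17544808-17551502) overlap the predicted genes Gm40616 and Gm22748. Slc7a1 (chr5:148327410-148399904), Nos2 (chr11:78920787-78960226), Ass1 (chr2:31470270-31520670) and Asl (chr5:130011258-130024381) overlap no other annotated exon. All positions are on GRCm38.p6.

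Slc7a2 was low in Vehicle, intermediate in PI3Ki, high in every SHP2i tumor and split in Combo. The Vehicle tumors, replicates 1 to 5, had 15.3, 10.1, 10.6, 11.6 and 9.20 CPM. The PI3Ki tumors, replicates 1, 2, 3 and 5, had 16.0, 31.4, 18.5 and 39.2 CPM, and the SHP2i tumors, replicates 2 to 5, had 38.1, 36.8, 47.0 and 42.4 CPM. The 5 Combo tumors had 42.3, 32.6, 72.5, 12.1 and 13.6 CPM. All SHP2i tumors and all PI3Ki tumors lay above the highest Vehicle tumor, whereas Combo replicates 4 and 5 lay within the Vehicle range and Combo replicate 3 was the highest of the 18. The SDs were 2.36 CPM in Vehicle, 10.9 CPM in PI3Ki, 4.62 CPM in SHP2i and 24.7 CPM in Combo.

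The difference that led to the choice of these genes was a 3.62-fold higher Slc7a2 level in SHP2i than in Vehicle (log2 fold change 1.86, SE 0.407). Against Vehicle, Slc7a2 was 2.31-fold higher in PI3Ki (log2 fold change 1.21, SE 0.406) and 3.05-fold higher in Combo (1.61, SE 0.390), both given without a test because they share the Vehicle tumors. In the order of group means, 11.4 CPM in Vehicle, 26.3 in PI3Ki, 34.6 in Combo and 41.1 in SHP2i, only Vehicle and PI3Ki were neighbours without overlap. Adding SHP099 to CLR457 was the comparison free of the choice, and there Slc7a2 did not pass the test: the log2 fold change of Combo versus PI3Ki was 0.40 (SE 0.402, adjusted p = 0.456). Without Combo replicate 3 that difference was -0.06 (adjusted p = 0.902), and the other tumors left out in turn gave up to 0.65. Without the same tumor, the untested difference of Combo from Vehicle was 1.15 and that from SHP2i was -0.71, against -0.25 with it.

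Slc7a1, the widely expressed carrier, did not follow Slc7a2. Its group means were 68.3 CPM ± 11.8 in Vehicle (SD, n = 5), 57.7 ± 9.85 in PI3Ki (n = 4), 74.5 ± 9.04 in SHP2i (n = 4) and 65.3 ± 7.01 in Combo (n = 5), and all groups overlapped. The log2 differences in the comparisons with a test ran from -0.24 (SE 0.136) for PI3Ki versus Vehicle to 0.18 (SE 0.136) for Combo versus PI3Ki, and none passed, with adjusted p of 0.319 or more. SHP2i exceeded Vehicle by 0.12 on the log2 scale (SE 0.135, not tested). Per kilobase of exon, Slc7a1 stood at a median of 5.11 times the Slc7a2 level in Vehicle tumors, 2.04 times in PI3Ki, 1.39 times in SHP2i and 1.83 times in Combo. Slc7a2 had the lowest level per kilobase of the 8 genes in every group, also in SHP2i, where it reached 4.50 CPM per kilobase.

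**Figure D1:**
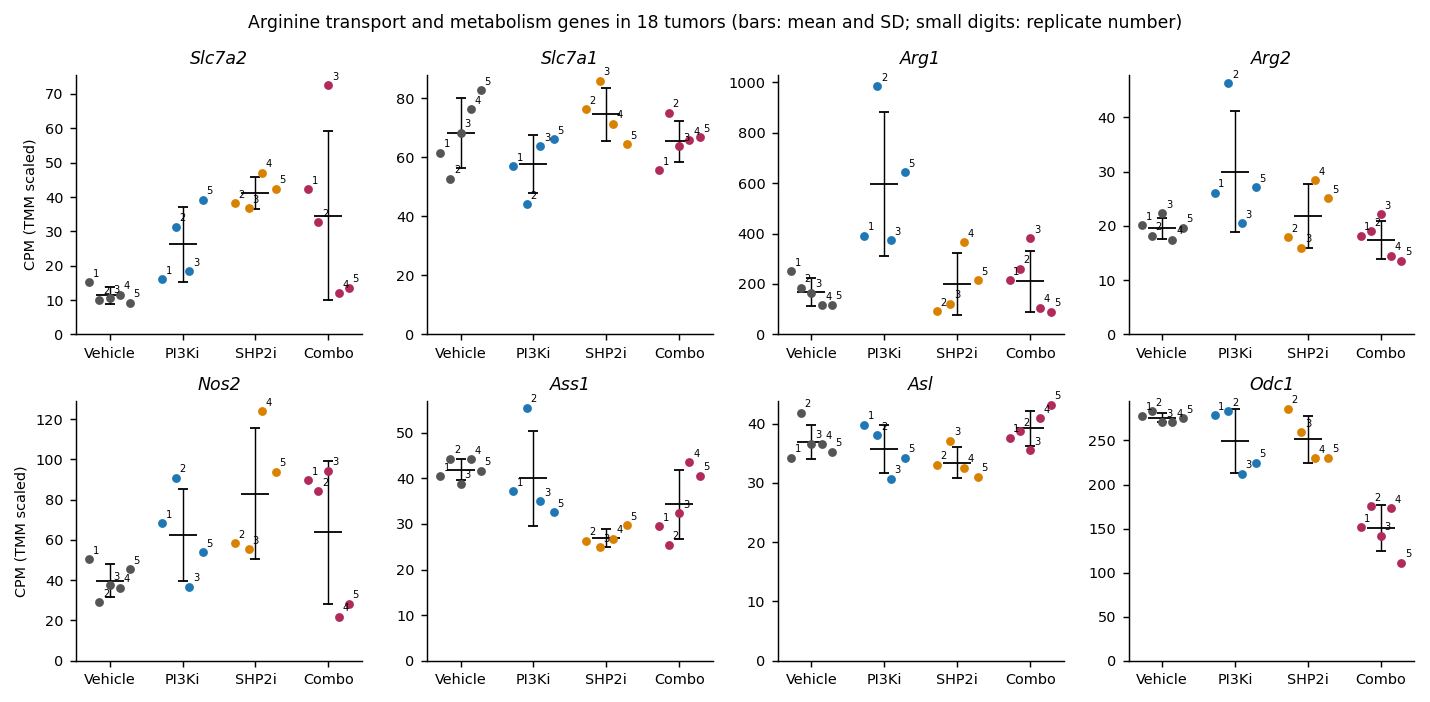
CPM (vertical axis, TMM scaled, from 0) of the 8 genes in each tumor, by treatment group, with each point's replicate number and the group mean and SD. Slc7a2 lies between 36.8 and 47.0 CPM in all SHP2i tumors and between 12.1 and 72.5 CPM in Combo, while Odc1 is lower in all 5 Combo tumors than in any other tumor.

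Arg1, the cytosolic arginase, was highest after CLR457 alone. The Vehicle tumors had 250.3, 185, 166, 116 and 118 CPM, and the PI3Ki tumors had 391, 985, 374 and 643 CPM. The lowest PI3Ki tumor exceeded the highest Vehicle tumor. The SHP2i tumors had 92.5, 121, 367 and 215 CPM and the Combo tumors had 215, 261, 381, 106 and 89.4 CPM, both within or across the Vehicle range.

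Among the 7 members tested in PI3Ki versus Vehicle, Arg1 rose and no other passed, where 2.69% of all genes tested were higher and 2.42% lower. Its level was 3.58-fold higher (log2 fold change 1.84, SE 0.449, adjusted p = 0.0233). The call was lost without PI3Ki replicate 2 (log2 fold change 1.49, adjusted p = 0.0772) or 5 (1.80, adjusted p = 0.0567), and without Vehicle replicate 2 (1.89, adjusted p = 0.0514), 3 (1.84, adjusted p = 0.0516), 4 (1.74, adjusted p = 0.0694) or 5 (1.74, adjusted p = 0.0554). It was also lost with the replicate number as a block (1.87, adjusted p = 0.0621). Combo was 2.84-fold lower than PI3Ki (log2 fold change -1.51, SE 0.446, adjusted p = 0.0135), which did not pass without PI3Ki replicate 2 (-1.18, adjusted p = 0.0660). Combo did not differ detectably from Vehicle (0.34, SE 0.420, adjusted p = 0.548) or from SHP2i (0.08, SE 0.446, adjusted p = 0.911), and SHP2i stood at 0.25 (SE 0.444) from Vehicle, not tested, or at -0.24 without SHP2i replicate 4.

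Markers of other cells moved beside Arg1. PI3Ki tumors had 10 of 10 skeletal muscle markers higher than Vehicle, and in Combo versus PI3Ki 10 of 10 muscle, 9 of 10 neutrophil and 10 of 12 macrophage markers were lower. The 10 neutrophil markers with enough counts summed to 287 to 474 CPM in Vehicle and 514 to 2900 CPM in PI3Ki. They summed to 182 to 316 CPM in SHP2i and 96.1 to 332 CPM in Combo. Camp and Ngp among them, and Ly6g, which is not in the sums, were at 0 in some of the 18 tumors. The macrophage markers summed to 2158 to 2759, 2100 to 3956, 777 to 1836 and 509 to 2128 CPM in the same order, with none at 0. PI3Ki replicate 2, the tumor with the most Arg1, also had the highest macrophage and neutrophil sums of the 18, at 3956 and 2900 CPM. Their part in the Arg1 differences was not tested.

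Arg2, the mitochondrial arginase, varied less. Its means were 19.5 CPM ± 1.92 in Vehicle (SD, n = 5), 30.0 ± 11.2 in PI3Ki (n = 4), 21.8 ± 5.88 in SHP2i (n = 4) and 17.5 ± 3.49 in Combo (n = 5). PI3Ki replicate 2 stood above the other 17 tumors at 46.2 CPM. Arg2 fell in Combo versus PI3Ki (log2 fold change -0.78, SE 0.213, adjusted p = 0.00843) although the groups overlapped. Without 1 tumor it ranged from -0.925 to -0.521, with adjusted p up to 0.0485. In PI3Ki versus Vehicle it was 0.62 (SE 0.212, adjusted p = 0.106), and without 1 tumor it ranged from 0.33 (adjusted p = 0.373) to 0.76 (adjusted p = 0.0431). The lowest value was without PI3Ki replicate 2, and the highest, which passed, without PI3Ki replicate 3. Over the 18 tumors the log2 CPM of Arg1 and Arg2 had a Pearson r of 0.861 and a Spearman rho of 0.833, with r = 0.764 without the 2 tumors farthest in Arg1 and r = 0.846 for deviations from the group means. These tumors share libraries and cell makeup, and the value is a description. Arg2 had r = 0.802 with the neutrophil markers over the 18 tumors, and r = 0.814 for deviations from the group means. Of these markers 9 of 10 were lower in Combo versus PI3Ki, and their part in the Arg2 levels was not tested.

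Nos2, which competes with the arginases for arginine, was at 50.5, 29.2, 37.5, 36.3 and 45.5 CPM in Vehicle and at 58.3, 55.4, 124 and 94.0 CPM in SHP2i, without overlap. That difference was 1.06 on the log2 scale (SE 0.389, not tested). PI3Ki tumors had 68.4, 91.0, 36.8 and 54.0 CPM. Combo tumors had 89.8, 84.3, 94.3, 21.9 and 28.4 CPM, so replicates 1 to 3 exceeded all Vehicle tumors and replicates 4 and 5 fell below all of them. No tested comparison of Nos2 passed: PI3Ki versus Vehicle was 0.65 (SE 0.389, adjusted p = 0.392), Combo versus Vehicle 0.68 (SE 0.370, adjusted p = 0.148), Combo versus PI3Ki 0.03 (SE 0.389, adjusted p = 0.964) and Combo versus SHP2i -0.38 (SE 0.387, adjusted p = 0.507). Combo versus Vehicle passed without Combo replicate 4 (0.91, adjusted p = 0.0376). The difference of Combo from PI3Ki changed sign with upper quartile scaling (-0.01) and without Combo replicate 1, 2 or 3 or PI3Ki replicate 3 or 5, where it lay between -0.16 and -0.05.

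The balance of arginase and inducible nitric oxide synthase, as the ratio of Arg1 to Nos2 per kilobase, had a median of 8.78 in Vehicle (range 5.14 to 12.5), 20.8 in PI3Ki (11.3 to 23.6), 4.43 in SHP2i (3.14 to 5.85) and 6.24 in Combo (4.74 to 9.64). The PI3Ki tumors did not overlap with the SHP2i or Combo tumors in this ratio. The SHP2i range overlapped with those of Vehicle and Combo. The ratio was not tested, since it combines the values of both genes.

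Ass1 and Asl, which act in sequence to make arginine from citrulline and aspartate, moved apart in size. Ass1 was at 40.5, 44.3, 38.9, 44.2 and 41.7 CPM in Vehicle and at 26.4, 24.9, 26.8 and 29.7 CPM in SHP2i, where every tumor lay below every Vehicle tumor. The log2 difference was -0.64 (SE 0.157, not tested) and -0.65 with the counts of Gm5424 added. PI3Ki tumors had 37.1, 55.5, 35.0 and 32.5 CPM, and Combo tumors 29.5, 25.4, 32.4, 43.5 and 40.6 CPM, with replicates 4 and 5 in the Vehicle range once more. None of the tested differences of Ass1 passed: PI3Ki versus Vehicle was -0.07 (SE 0.155, adjusted p = 0.873), Combo versus Vehicle -0.29 (SE 0.146, adjusted p = 0.119), Combo versus PI3Ki -0.22 (SE 0.155, adjusted p = 0.272) and Combo versus SHP2i 0.35 (SE 0.157, adjusted p = 0.118). Combo versus Vehicle passed without Combo replicate 4 (-0.39, adjusted p = 0.0388), without PI3Ki replicate 2 (-0.32, adjusted p = 0.0373) and with library totals in place of scaling factors (-0.36, adjusted p = 0.0398). Combo versus SHP2i passed without Combo replicate 2 (0.44, adjusted p = 0.0453).

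Asl hardly varied. Its means were 36.9 CPM ± 2.94 in Vehicle, 35.7 ± 4.08 in PI3Ki, 33.4 ± 2.59 in SHP2i and 39.2 ± 2.97 in Combo (SD), and the groups overlapped in every comparison. The nearest to a call was Combo versus SHP2i at 0.23 (SE 0.0874, adjusted p = 0.0678), which passed without SHP2i replicate 3 (0.29, adjusted p = 0.0303) or Combo replicate 3 (0.26, adjusted p = 0.0434).

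Odc1 was lower in Combo than in each other group. Its level was 278, 283, 271, 271 and 275 CPM in Vehicle, 279, 283, 212 and 225 CPM in PI3Ki, 286, 260, 230 and 230 CPM in SHP2i, and 151, 175, 142, 173 and 111 CPM in Combo. The highest Combo tumor lay below the lowest tumor of every other group, and replicates 4 and 5, which lay within the Vehicle range for Slc7a2 and Ass1 and below it for Nos2, were as low as the rest. Odc1 fell in Combo versus Vehicle (1.83-fold, log2 fold change -0.87, SE 0.114, adjusted p = 1.81e-05), versus PI3Ki (-0.73, SE 0.120, adjusted p = 0.000200) and versus SHP2i (-0.74, SE 0.120, adjusted p = 0.000558). PI3Ki alone was at -0.14 against Vehicle (SE 0.120, adjusted p = 0.579) and SHP2i at -0.13 (SE 0.120, not tested).

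In Combo versus Vehicle and Combo versus SHP2i, Odc1 was the 1 call among the 7 members tested. Of all genes tested, 23.9% were higher and 19.7% lower in Combo versus Vehicle, and 11.8% were higher and 10.3% lower in Combo versus SHP2i. In Combo versus PI3Ki, 3 of 8 members were lower (Arg1, Arg2 and Odc1), where 19.9% of all genes were higher and 17.8% lower. With so many genes called, 1 of 7 or 3 of 8 is not apart from the background. Beside Odc1, 7 of 8 endothelial markers were lower in Combo in each of the 3 comparisons, with a summed level of 184 to 257 CPM against 338 to 672 CPM in the other groups and none at 0. Odc1 had r = 0.801 with these markers over 18 tumors, but r = -0.134 for deviations from the group means. In Combo versus Vehicle, 8 of 12 macrophage markers were lower and 1 higher, and 6 of 10 neutrophil markers were lower. Against PI3Ki 10 and 9 were lower, and against SHP2i 2 and 3. The part of cell makeup in the Odc1 levels was not tested.

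**Figure D2:**
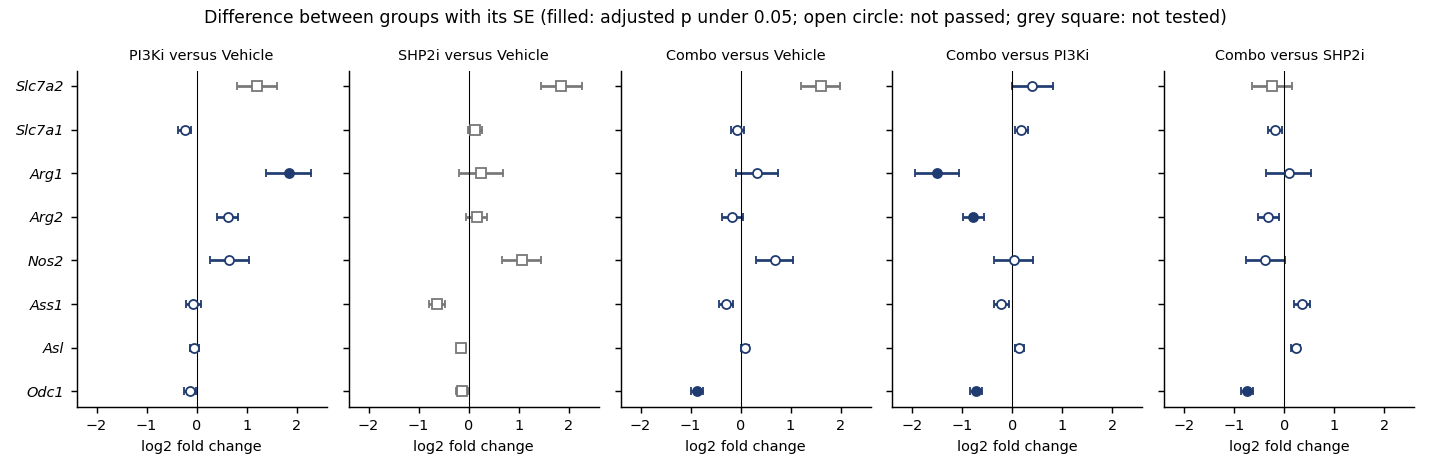
Log2 fold change (horizontal axis) of each gene with its SE in 5 comparisons, as filled circles for adjusted p under 0.05, open circles for tests not passed and grey squares for values not tested. Arg1 stands at 1.84 in PI3Ki versus Vehicle and at -1.51 in Combo versus PI3Ki, and Odc1 is filled in all 3 comparisons of Combo.

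Whether both inhibitors together did more or less than the sum of their single effects was tested with the interaction of the 2 treatments. None of the 7 members tested passed, against 2.47% of all genes. At an unadjusted p under 0.05, which 18.6% of all genes reached, there were 4: Arg1 (-1.76, SE 0.627, adjusted p = 0.149), Arg2 (-0.94, SE 0.301, adjusted p = 0.114), Asl (0.28, SE 0.123, adjusted p = 0.240) and Odc1 (-0.60, SE 0.169, adjusted p = 0.0730). DESeq2 called 2 of them, Arg2 (adjusted p = 0.0495) and Odc1 (adjusted p = 0.0203), and edgeR called Odc1 without PI3Ki replicate 3 (-0.67, adjusted p = 0.0471). Slc7a2 had an interaction of -1.46 (SE 0.566), not tested because it contains the difference that chose the genes.

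The log2 CPM of Slc7a2 and Nos2 had r = 0.806 and rho = 0.818 over 18 tumors, r = 0.824 without the 2 tumors farthest in Slc7a2, and r = 0.775 for deviations from the group means. Slc7a2 and Arg1 had r = 0.433, rho = 0.451, and r = 0.784 for the deviations. Slc7a2 and Ass1 ran opposite, with r = -0.666, rho = -0.725 and r = -0.387 for the deviations. All tumors of a group share their treatment, so the pooled values carry the differences between groups.

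The genes most like Slc7a2 in log2 CPM, among 12860 candidates, were F7 (coagulation factor VII, r = 0.907), Ffar2 (a receptor for short-chain fatty acids, r = 0.901), Il13ra2 (the decoy receptor of interleukin-13, r = 0.899), 9630028H03Rik (r = 0.888) and Itga7 (integrin alpha 7, r = 0.883). For deviations from the group means they were Rbp4 (the retinol carrier, r = 0.931), Apoc1 (an apolipoprotein, r = 0.907), Orm1 (an acute phase protein, r = 0.900), Mrap (r = 0.898) and G0s2 (an inhibitor of adipose lipase, r = 0.892). The first list follows the treatment groups and the second the tumors within them. For Arg1 the closest were Ccl6, E230016K23Rik and Fcna (r = 0.946 to 0.958), and for Arg2 they were Tarm1, Mxd1 and Mmp23 (0.898 to 0.948). For Nos2 they were Slc38a6, Fam227b and Hoxc6 (0.858 to 0.886), for Odc1 Tars2, Ddx39a and Kcne3 (0.921 to 0.938), for Slc7a1 Cherp, Iars and Hus1 (0.852 to 0.875), and for Asl Sdf2, Chmp2b and Use1 (0.837 to 0.869). For Ass1 the first was its copy Gm5424 (r = 0.987), before Mospd3 and Psenen.

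The split within Combo ran beside some of the cell type markers only. Combo replicates 1 to 5 had macrophage marker sums of 780, 2103, 2128, 584 and 509 CPM and adipocyte marker sums of 200.4, 511, 810, 122 and 171 CPM. Replicates 4 and 5, with the lowest Slc7a2, Nos2 and Arg1 of the group, were lowest in both sums. Replicate 1 came next in both sums, yet its Slc7a2 and Nos2, at 42.3 and 89.8 CPM, lay above those of replicate 2. The neutrophil and skeletal muscle sums were also lowest in replicates 4 and 5. Those of fibroblast, T cell, B cell, endothelial and epithelial markers were not. Over the 18 tumors, Slc7a2 had r = -0.170 with the macrophage markers and r = 0.662 for deviations from the group means, and r = 0.722 and 0.797 with the adipocyte markers. With the skeletal muscle markers, of which 10 of 10 were higher in PI3Ki versus Vehicle, it had r = -0.007 and 0.296.

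Adipocyte markers summed to 121 to 288 CPM in Vehicle, 92.1 to 317 CPM in PI3Ki, 275 to 374 CPM in SHP2i and 122 to 810 CPM in Combo, with none of the 5 at 0. None of the 5 passed the edgeR test in SHP2i versus Vehicle (median log2 fold change 0.88). The part of cell makeup in the Slc7a2 levels was not tested.

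**Figure D3:**
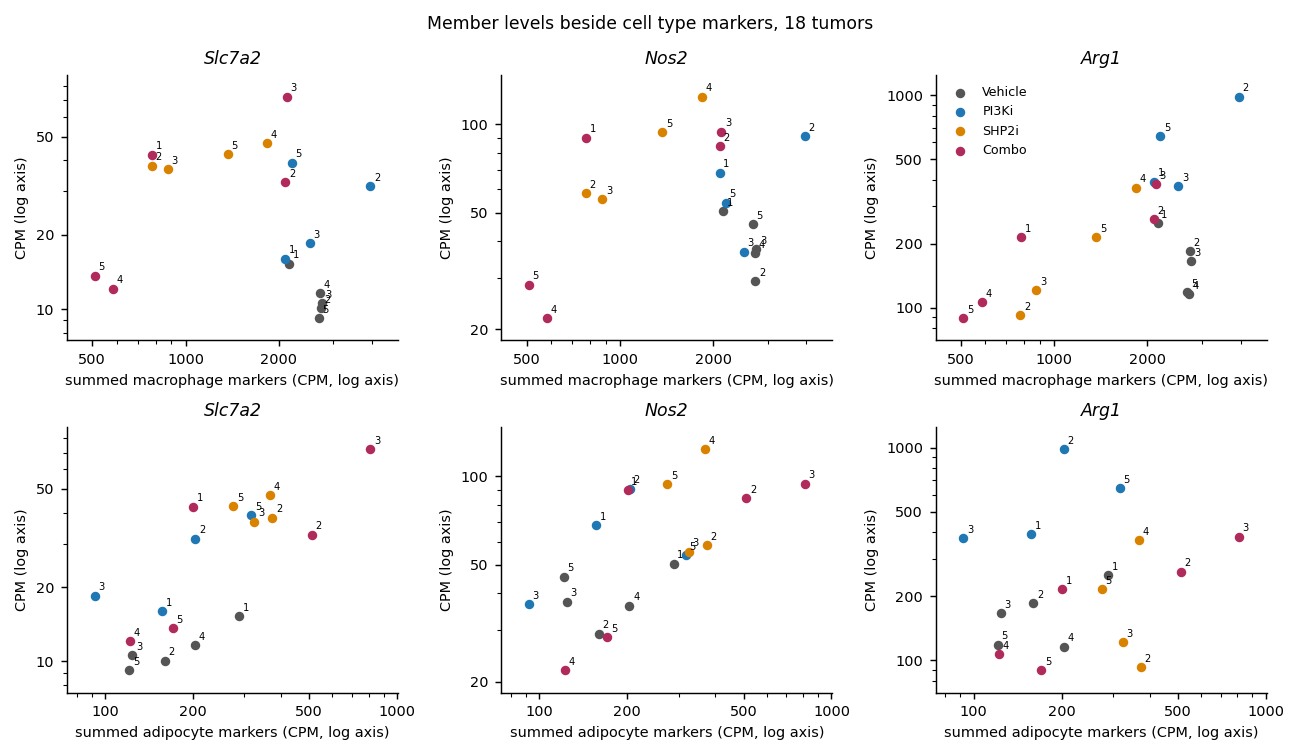
CPM of Slc7a2, Nos2 and Arg1 (vertical, log axes) against the summed CPM of 12 macrophage markers (top row) and 5 adipocyte markers (bottom row, horizontal log axes) in 18 tumors, numbered by replicate. Combo replicates 4 and 5 lie at the lower left, at 584 and 509 CPM of macrophage markers, and the SHP2i tumors lie between 777 and 1836 CPM of these markers.

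The rest of the pathway was read from 5 lists with 57 genes in the tables, of which 48 had enough counts. In SHP2i versus Vehicle 5 of the 48 were higher and 7 lower, where 5.05% of all genes were higher and 6.54% lower. In PI3Ki versus Vehicle 2 were higher and 8 lower, against 2.69% and 2.42% of all genes. In Combo versus Vehicle 8 were higher and 20 lower, against 23.9% and 19.7%. In Combo versus PI3Ki 7 were higher and 15 lower, against 19.9% and 17.8%, and in Combo versus SHP2i 5 and 8, against 11.8% and 10.3%. The median log2 fold change of the 48 was -0.08, -0.01, -0.13, -0.08 and -0.03 in these 5 comparisons, beside 0.02, 0.01, 0.02, 0.01 and 0.03 over all genes tested.

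Gatm had the greatest change of the 48 in SHP2i versus Vehicle, in Combo versus Vehicle and in Combo versus PI3Ki. It encodes the enzyme that moves the amidino group of arginine to glycine, the first step of creatine synthesis. The Vehicle tumors had 173, 232, 208, 242 and 229 CPM and the PI3Ki tumors 209, 245, 218 and 223 CPM. The SHP2i tumors had 20.5, 14.6, 38.1 and 29.5 CPM and the Combo tumors 44.7, 23.8, 38.1, 15.1 and 9.34 CPM. Every tumor given SHP099 lay far below every tumor that was not. Gatm fell 8.45-fold in SHP2i versus Vehicle (log2 fold change -3.08, SE 0.371, adjusted p = 6.86e-05), 8.27-fold in Combo versus Vehicle (-3.05, SE 0.339, adjusted p = 3.83e-06) and 8.54-fold in Combo versus PI3Ki (-3.09, SE 0.348, adjusted p = 6.77e-06). PI3Ki did not differ detectably from Vehicle (0.05, SE 0.329, adjusted p = 0.964), nor did Combo from SHP2i (0.03, SE 0.340, adjusted p = 0.957). Macrophage markers fell with it: 7 of 12 were lower in SHP2i and 8 of 12 in Combo versus Vehicle, with medians of -1.45 and -1.87. Their part in the fall of Gatm was not tested.

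Among the carriers, 2 of 9 rose and 1 fell in SHP2i versus Vehicle, where 5.05% of all genes were higher and 6.54% lower. Slc7a6 and Slc7a7 are light chains that exchange arginine for neutral amino acids when bound to Slc3a2. Slc7a6 was at 44.1 to 49.8 CPM in Vehicle, 32.8 to 43.2 in PI3Ki, 59.4 to 61.8 in SHP2i and 48.5 to 56.4 in Combo. It rose in SHP2i versus Vehicle (log2 fold change 0.37, SE 0.0769, adjusted p = 0.00539), fell in PI3Ki versus Vehicle (-0.35, SE 0.0779, adjusted p = 0.0145) and rose in Combo versus PI3Ki (0.52, SE 0.0781, adjusted p = 9.47e-05). The fall in PI3Ki was lost without PI3Ki replicate 5 (-0.31, adjusted p = 0.0558) and with the compared groups alone (-0.35, adjusted p = 0.0522). Slc7a7 went the other way with SHP099, from 46.3 to 52.2 CPM in Vehicle to 31.2 to 37.6 CPM in SHP2i (-0.52, SE 0.0827, adjusted p = 0.000836), and was lower in Combo than in Vehicle (-0.40, adjusted p = 0.000586) and than in PI3Ki (-0.31, adjusted p = 0.00660). The macrophage markers given beside Gatm were lower in the same comparisons, 10 of 12 in Combo versus PI3Ki, and their part in the Slc7a7 levels was not tested. The heavy chain Slc3a2, the most abundant of the list at group means of 202 to 235 CPM, passed in none of these comparisons.

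Slc7a4, a low-level relative of the cationic carriers at group means of 2.08 to 3.45 CPM, rose in SHP2i versus Vehicle (0.68, SE 0.167, adjusted p = 0.0149), in Combo versus Vehicle (0.73, SE 0.158, adjusted p = 0.00148) and in Combo versus PI3Ki (0.55, SE 0.168, adjusted p = 0.0160). The first was lost without SHP2i replicate 5 (0.58, adjusted p = 0.0657) and the last without PI3Ki replicate 2 (0.46, adjusted p = 0.0683) and with the compared groups alone (0.54, adjusted p = 0.0554). The mitochondrial carrier Slc25a29 rose in Combo versus PI3Ki (0.82, SE 0.253, adjusted p = 0.0173), and did not pass without Combo replicate 5 (0.51, adjusted p = 0.0515) or PI3Ki replicate 2 (0.70, adjusted p = 0.0692), or with the compared groups alone (0.80, adjusted p = 0.0762).

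Of 9 genes for nitric oxide and its cofactor, none rose and 2 fell in SHP2i versus Vehicle, 1 fell in PI3Ki, 1 rose and 3 fell in Combo versus Vehicle, and 3 fell in Combo versus PI3Ki. Over all genes the shares called higher and lower were 5.05% and 6.54%, 2.69% and 2.42%, 23.9% and 19.7%, and 19.9% and 17.8% in the same order, so the 4 of 9 in Combo versus Vehicle are not apart from the background. Nos3, the endothelial synthase, was at 17.1 to 21.3 CPM in Vehicle, 8.70 to 10.6 in PI3Ki, 13.2 to 22.6 in SHP2i and 3.28 to 8.04 in Combo. It fell in PI3Ki versus Vehicle (-0.94, SE 0.215, adjusted p = 0.0165), in Combo versus Vehicle (-1.86, SE 0.208, adjusted p = 4.03e-06) and in Combo versus PI3Ki (-0.92, SE 0.215, adjusted p = 0.00306), and the first call was lost without PI3Ki replicate 5 (-0.93, adjusted p = 0.0503). The 8 endothelial markers summed to 427 to 537 CPM in Vehicle, 338 to 496 in PI3Ki, 426 to 672 in SHP2i and 184 to 257 in Combo. None of the 8 passed in PI3Ki versus Vehicle (median -0.30), while 7 fell in Combo versus Vehicle (median -1.16).

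Gch1 and Pts make tetrahydrobiopterin, the cofactor of nitric oxide synthases. Gch1 fell in SHP2i versus Vehicle (-0.30, SE 0.0774, adjusted p = 0.0207), in Combo versus Vehicle (-0.34, adjusted p = 0.00131) and in Combo versus PI3Ki (-0.32, adjusted p = 0.00361). Its fall in SHP2i did not pass without Vehicle replicate 2 (-0.27, adjusted p = 0.0536), SHP2i replicate 2 (-0.29, adjusted p = 0.0526) or SHP2i replicate 4 (-0.30, adjusted p = 0.0501). Pts fell in the same 3 comparisons (-0.47, -0.43 and -0.40, with adjusted p of 0.0305, 0.0109 and 0.0226), and the first of these was lost in 6 of the 18 fits that left out 1 tumor and with library totals alone (-0.46, adjusted p = 0.0514). The last was lost without PI3Ki replicate 2 (-0.37, adjusted p = 0.0658) or 5 (-0.36, adjusted p = 0.0658) and with the compared groups alone (-0.42, adjusted p = 0.0802). Most macrophage markers were lower in the same 3 comparisons, and their part in the Gch1 and Pts levels was not tested. Ddah1, which breaks down the methylarginines that inhibit these enzymes, rose in Combo versus Vehicle (0.41, SE 0.125, adjusted p = 0.0140), and Ddah2 passed in none.

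**Figure D4:**
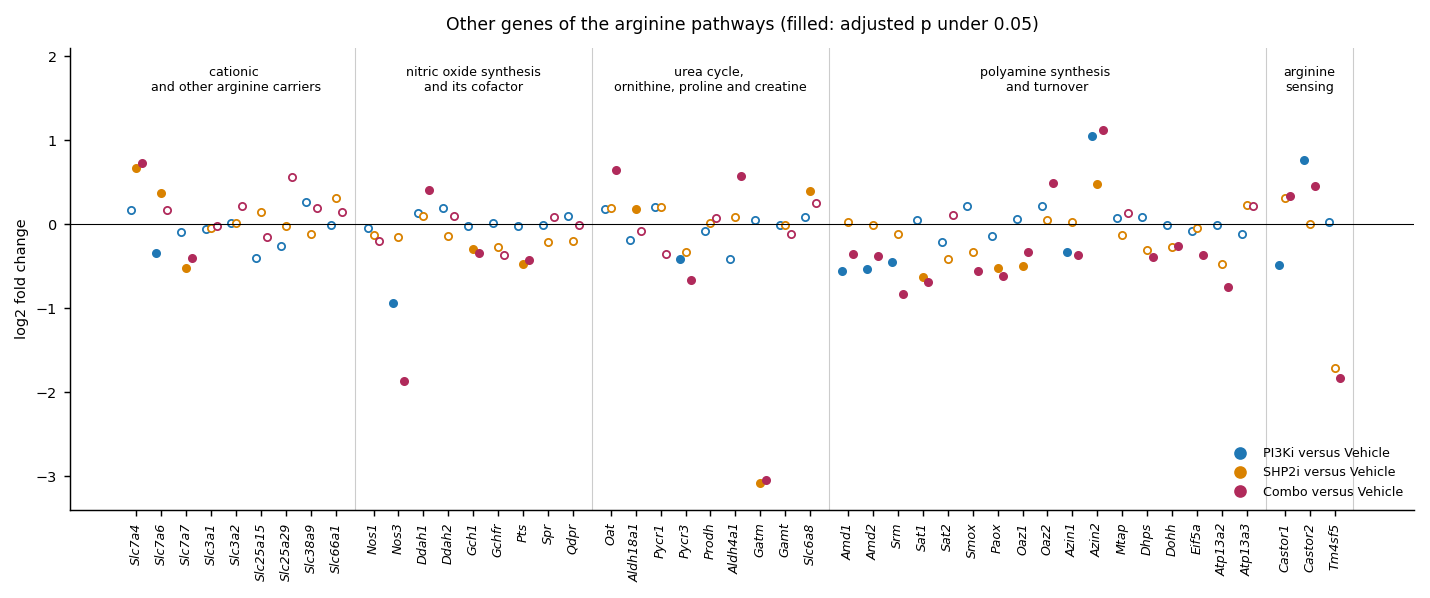
Log2 fold change against Vehicle (vertical axis) of further genes of the arginine pathways, by list, in PI3Ki (blue), SHP2i (orange) and Combo (red), filled where the adjusted p was under 0.05. Gatm stands alone near -3 in SHP2i and Combo, and most filled points of the polyamine list are below 0 in Combo.

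Of 10 genes of the urea cycle and of ornithine, proline and creatine, Gatm included, 2 rose and 3 fell in Combo versus Vehicle, where 23.9% of all genes were higher and 19.7% lower. Oat, which turns ornithine toward proline, was at 128 to 145 CPM in Vehicle and 166 to 295 CPM in Combo, and rose (0.65, SE 0.134, adjusted p = 0.000957). It also rose in Combo versus PI3Ki (0.47, adjusted p = 0.0162), except without PI3Ki replicate 5 (0.37, adjusted p = 0.0664) and with the compared groups alone (0.45, adjusted p = 0.0572). Aldh4a1, a mitochondrial enzyme of proline breakdown, was at 16.7 to 22.7 CPM in Vehicle, 12.3 to 16.6 in PI3Ki, 17.7 to 27.0 in SHP2i and 25.5 to 33.2 in Combo. It rose in Combo versus Vehicle (0.58, adjusted p = 0.00132) and versus PI3Ki (0.98, SE 0.133, adjusted p = 4.01e-05). The alternatives were not run for the first of these. The proline-forming reductase Pycr3 fell in Combo versus Vehicle (-0.67, SE 0.104, adjusted p = 9.32e-05). Pycr3 fell in PI3Ki versus Vehicle too (-0.41, adjusted p = 0.0379), a call lost in 7 of 18 fits without 1 tumor. Pycr1 fell in Combo versus PI3Ki (-0.56, adjusted p = 0.0285), lost in 5 of 18 such fits, with the replicate block (-0.58, adjusted p = 0.0538) and with the compared groups alone (-0.58, adjusted p = 0.101). In SHP2i, the creatine carrier Slc6a8 (0.40, adjusted p = 0.0422) and Aldh18a1 (0.18, adjusted p = 0.0490), which makes the precursor of proline and ornithine, passed narrowly. These calls were lost in 9 and 14 of the 18 fits without 1 tumor. Slc6a8 was also lost with no minimum count (adjusted p = 0.0584) and with the replicate block (adjusted p = 0.0878). Aldh18a1 was lost with these and with each other scaling and the compared groups alone (adjusted p of 0.0551 to 0.103). Both were lost without the 2 Combo tumors high in B cell markers (adjusted p = 0.0545 and 0.0661), an alternative chosen after seeing the data.

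The polyamine list holds enzymes of synthesis and turnover and the regulators of Odc1 protein. Of 17 tested, 2 rose and 12 fell in Combo versus Vehicle (median log2 fold change -0.36), where 23.9% of all genes were higher and 19.7% lower. In Combo versus PI3Ki 1 rose and 8 fell (median -0.25), against 19.9% and 17.8% of all genes, and in Combo versus SHP2i 2 rose and 4 fell, against 11.8% and 10.3%. In PI3Ki versus Vehicle 1 rose and 4 fell, against 2.69% and 2.42%, and in SHP2i versus Vehicle 1 rose and 3 fell, against 5.05% and 6.54%.

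Srm, spermidine synthase, had 77.6 to 93.2 CPM in Vehicle, 55.4 to 63.4 in PI3Ki, 67.6 to 87.1 in SHP2i and 35.0 to 59.9 in Combo. It fell in PI3Ki versus Vehicle (-0.45, SE 0.120, adjusted p = 0.0361), in Combo versus Vehicle (-0.83, SE 0.113, adjusted p = 2.57e-05) and in Combo versus PI3Ki (-0.38, adjusted p = 0.0181), and stood at -0.12 in SHP2i versus Vehicle (adjusted p = 0.532). Amd1, which makes the aminopropyl donor, fell in PI3Ki (-0.56, SE 0.101, adjusted p = 0.00288) and Combo (-0.35, adjusted p = 0.00640) versus Vehicle. Its near-identical copy Amd2, whose reads the counts may not separate, did likewise (-0.54 and -0.37).

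Sat1, which acetylates spermidine and spermine for export or breakdown, had 122 to 166 CPM in Vehicle, 119 to 194 in PI3Ki, 85.5 to 99.8 in SHP2i and 79.1 to 103 in Combo. It fell in SHP2i versus Vehicle (-0.63, SE 0.124, adjusted p = 0.00387), in Combo versus Vehicle (-0.68, adjusted p = 0.000199) and in Combo versus PI3Ki (-0.74, adjusted p = 0.000230). Paox, the oxidase of acetylated polyamines, fell in the same comparisons (-0.52, -0.62 and -0.48, with adjusted p of 0.000973, 1.63e-05 and 0.000374). Of 12 macrophage markers 7, 8 and 10 were lower in these comparisons, and 1 was higher in Combo versus Vehicle. Their part in the Sat1 and Paox levels was not tested. Smox, spermine oxidase, fell in Combo versus Vehicle (-0.55, adjusted p = 0.00158) and versus PI3Ki (-0.76, adjusted p = 0.000235). Dhps, which uses spermidine to modify Eif5a, fell in Combo versus PI3Ki (-0.47, adjusted p = 0.00126), and Eif5a, the most abundant of the list, fell in Combo versus Vehicle (-0.36, adjusted p = 0.0144). Mtap, which salvages the by-product of spermidine synthesis, passed in none.

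Oaz1, the antizyme that sends Odc1 to degradation, fell in SHP2i versus Vehicle (-0.49, SE 0.120, adjusted p = 0.0141), where Odc1 itself stood at -0.13. Oaz1 also fell in Combo versus Vehicle (-0.33, adjusted p = 0.0247) and versus PI3Ki (-0.40, adjusted p = 0.0140). Most macrophage markers were lower in these comparisons too, and their part in the Oaz1 levels was not tested. A second antizyme, Oaz2, named after its values were seen, rose in Combo versus Vehicle (0.49, SE 0.109, adjusted p = 0.00168) and versus SHP2i (0.44, adjusted p = 0.0130). The alternatives were not run for Oaz2 or for Oaz1 in Combo. Of this list they were also not run for Eif5a, or for Srm in PI3Ki versus Vehicle and in Combo versus PI3Ki. The same holds for Amd1, Amd2, Smox and Azin1 in Combo versus Vehicle. The antizyme inhibitor Azin1 fell in PI3Ki (-0.33, SE 0.0745, adjusted p = 0.0163) and Combo (-0.37, adjusted p = 0.000519) versus Vehicle, the first lost without PI3Ki replicate 1 (-0.30, adjusted p = 0.0583) or 5 (-0.28, adjusted p = 0.0637). The second antizyme inhibitor, Azin2, rose from 35.4 to 42.7 CPM in Vehicle to 62.7 to 101 CPM in PI3Ki (1.05, SE 0.142, adjusted p = 0.000194) and 74.1 to 99.9 CPM in Combo (1.12, SE 0.135, adjusted p = 8.77e-06). In SHP2i, at 45.6 to 68.9 CPM, it passed as well (0.48, adjusted p = 0.0382). That call was lost in 8 of 18 fits without 1 tumor and with upper quartile scaling (0.45, adjusted p = 0.0525).

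Castor1, the cytosolic arginine sensor of mTORC1, and its relative Castor2 changed in opposite directions after CLR457 alone. Castor1 had 16.4 to 19.6 CPM in Vehicle, 11.2 to 14.1 in PI3Ki, 18.6 to 26.1 in SHP2i and 20.6 to 25.2 in Combo. It fell in PI3Ki versus Vehicle (-0.48, SE 0.102, adjusted p = 0.0103) and rose in Combo versus Vehicle (0.33, adjusted p = 0.00930) and versus PI3Ki (0.81, SE 0.102, adjusted p = 1.83e-05). The rise against Vehicle was lost without the 2 Combo tumors high in B cell markers (0.27, adjusted p = 0.0628), an alternative chosen after seeing the data. Castor2 rose in PI3Ki (0.77, SE 0.130, adjusted p = 0.00176) and in Combo (0.46, adjusted p = 0.00690) versus Vehicle. Tm4sf5, a lysosomal sensor, was at or below 0.611 CPM in every tumor and at 0 in Combo replicates 1 and 2. It passed as lower in Combo versus Vehicle (-1.83, adjusted p = 0.0242), except without Combo replicate 4 (-1.71, adjusted p = 0.0527) or 5 (-1.63, adjusted p = 0.0568) and with the compared groups alone (-1.85, adjusted p = 0.0646). It also passed versus PI3Ki (-1.87, adjusted p = 0.0299), lost in 6 of 18 fits without 1 tumor and with the compared groups alone (-1.88, adjusted p = 0.123).

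**Figure D5:**
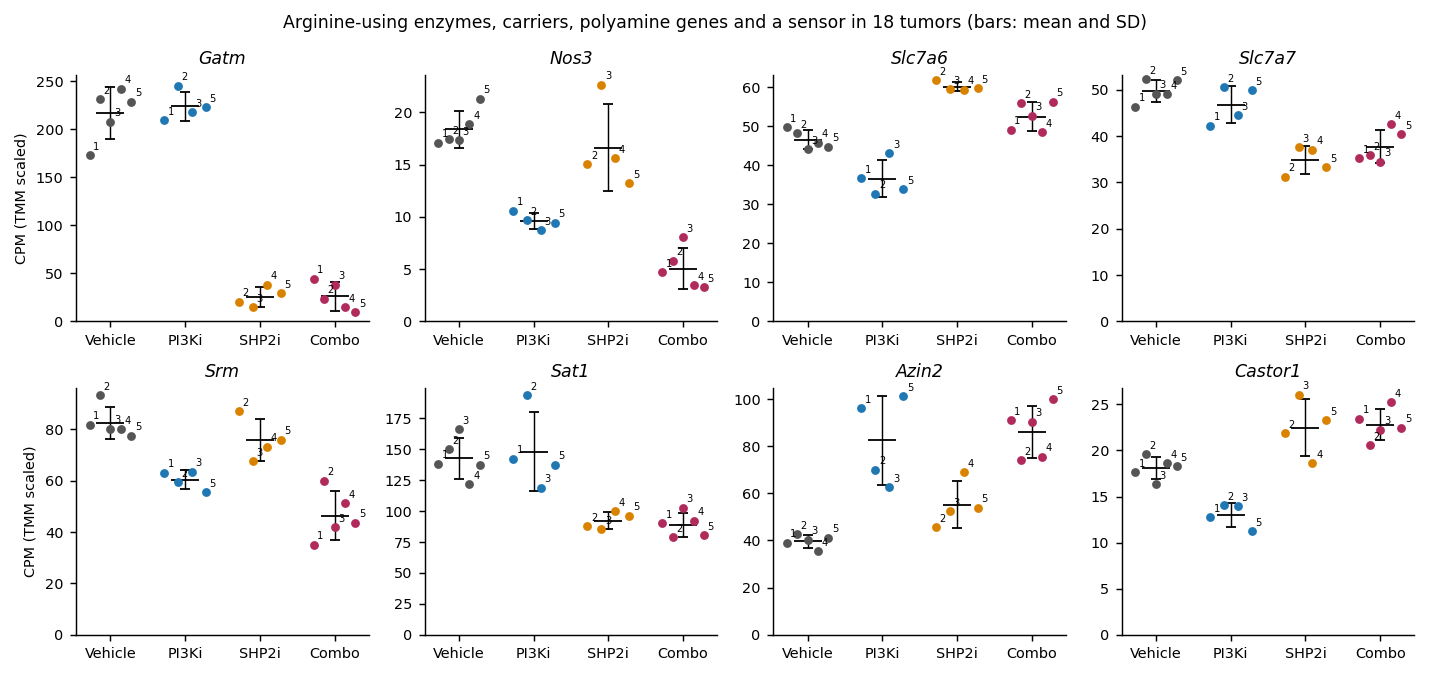
CPM (vertical axis, from 0) of 8 further pathway genes in each tumor by group, with replicate numbers and the group mean and SD. Gatm lies at 173 CPM or more in all Vehicle and PI3Ki tumors and at 44.7 CPM or less in all SHP2i and Combo tumors, and Srm is lowest in Combo.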

How the data were processed

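RNA of 18 tumors was measured as whole-number counts per gene. According to the methods, the authors selected poly(A) RNA, made directional libraries, trimmed the paired-end reads, mapped them to GRCm38 with STAR and made gene counts with QuasR. The deposited counts carry Entrez Gene identifiers and are not normalized. Tool versions, the annotation and the strand setting of the counting are not given in the sources used here. The labels also name hg19, and the identifiers are of mouse genes. Tumors were grouped by their labels.

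Genes were kept with filterByExpr (minimum count 10), scaled by TMM and fitted over all 18 tumors in edgeR 4.0.16 (R 4.3.3). The quasi-likelihood F test gave p-values, which were adjusted over 15282 genes (Benjamini-Hochberg) and called under 0.05. SEs were derived from F and the log2 fold change, and log2 CPM used a prior count of 2. The p-values set the difference between group means against the spread between tumors within groups, estimated over all groups together. The spread used for Combo versus PI3Ki thus also draws on the Vehicle and SHP2i tumors. The scripts were tested on simulated data. No 2 tumors of a group agreed within sampling noise (chi-square per degree of freedom of 12.4 or more).

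Members and lists were chosen with earlier results of these data known. Named were all 8 members, of each list up to 4 called genes by p and the 2 most abundant, and the 3 genes (5 for Slc7a2, by each of 2 measures) most correlated with each member at a mean log2 CPM over 1. Symbols were matched to RefSeq, and 32 identifiers had none. Sms and Trac were not matched. A further gene of the lists is counted but not reported by name here. Pycr3 is listed as Pycrl. Coding sequences came from GENCODE M21. Levels per kilobase divide the CPM by the merged length of all exons of a gene in that annotation. Which transcripts were expressed was not determined, so ratios and ranks between genes depend on this length. Alternatives were DESeq2 1.42.0, other scaling, filters of no minimum and of 50, a fold change limit, the compared groups alone, a replicate block and each tumor left out. Added after seeing the data were Combo without the 2 tumors high in B cell markers and Ass1 with Gm5424 added.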

Additional observations from a re-analysis of the deposited data

Results flagged for a closer look

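Single tumors stood apart within their group in 4 of 164 sets of 1 gene in 1 group of tumors, by the gap to the next tumor over the range of the group, and chance alone marks about 1 set in 20. Slc7a6 was at 61.8 CPM in SHP2i replicate 2, against 59.4 to 59.8 CPM in the other SHP2i tumors, a gap that is small in size. Slc3a2 was at 257.8 CPM in PI3Ki replicate 2, against 184 to 190 CPM in the rest of that group. Oat was at 126.8 CPM in PI3Ki replicate 5, against 160 to 162 CPM. Smox was at 85.3 CPM in PI3Ki replicate 3, against 120 to 121 CPM.

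The effect of SHP099 on Aldh4a1 differed with and without CLR457. Its interaction was 0.90 on the log2 scale (SE 0.186, edgeR adjusted p = 0.0183), the only one to pass among 40 genes looked at. Over all genes 2.47% passed, so a single call is not apart from the background. The alternatives were not run for the Aldh4a1 interaction. The mean level was 19.6 CPM in Vehicle, 14.8 in PI3Ki, 20.8 in SHP2i and 29.2 in Combo.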

How the results depend on the processing

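The falls of Odc1 in all 3 comparisons of Combo, and of Gatm in the 3 comparisons that add SHP099, passed under every alternative run, except that Odc1 lies under a limit of 1 on the log2 fold change. Under that added limit the members called were 1 in Combo versus PI3Ki, 0 in Combo versus Vehicle and 0 in Combo versus SHP2i, and the pathway genes called were 1 in SHP2i, 1 in PI3Ki and 4 in Combo versus Vehicle and 2 in Combo versus PI3Ki, which follows from the limit itself. For the other changes the cause was not tested. With library totals alone, 2 members were called in Combo versus Vehicle. DESeq2 called 2 members for the interaction. With the compared groups alone, 14 pathway genes were called in Combo versus PI3Ki. Other settings turned the sign of a difference that passed in none of them: Arg1 in Combo versus SHP2i was -0.025 with the replicate block and -0.086 without the 2 Combo tumors high in B cell markers (chosen after seeing the data), and Nos2 in Combo versus PI3Ki was -0.008 with upper quartile scaling. Apart from the fits without 1 tumor, 13 pathway results lost their call in 22 pairs of a result and a setting, with adjusted p from 0.0514 to 0.123. The fits without 1 tumor gave 71 more such losses.

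The labels do not say whether replicate numbers pair the tumors. Of 24 pairs of tumors with the same number in 2 groups, 8 had deviations that correlated over 0.1 (range -0.420 to 0.326). Tumors with different numbers were not compared in this way, so these values cannot decide it. With the replicate number as a block, 0 members were called in PI3Ki versus Vehicle (Arg1 1.87, adjusted p = 0.0621), and 200 genes in all for the interaction against 378.

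With 1 tumor left out in turn, the members called ranged from 0 to 2 in PI3Ki versus Vehicle, 1 to 3 in Combo versus Vehicle, 1 to 2 in Combo versus SHP2i and 0 to 1 for the interaction. Pathway genes called ranged from 7 to 14 in SHP2i and 5 to 11 in PI3Ki versus Vehicle. Log2 differences that changed sign ranged from -0.062 to 0.646 for Slc7a2 and -0.158 to 0.247 for Nos2 in Combo versus PI3Ki, -0.153 to 0.013 for Slc7a1 in Combo versus Vehicle and -0.074 to 0.129 in its interaction, -0.244 to 0.561 for Arg1 in Combo versus SHP2i, and -0.262 to 0.019 for Ass1 and -0.103 to 0.019 for Asl in PI3Ki versus Vehicle.

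Over all genes, DESeq2 called 1245 in PI3Ki versus Vehicle against 781, and 766 for the interaction. The compared groups alone gave 3192 in SHP2i versus Vehicle against 1772, and 2212 in Combo versus SHP2i against 3375. With library totals alone the share of calls that were higher was 37.8% against 52.6% in PI3Ki versus Vehicle, and 37.2% against 53.3% in Combo versus SHP2i. No scaling moved the median gene by over 0.1 on the log2 scale. Every member had at least 211 counts in each tumor, so depth limits them little, whereas Tm4sf5 lies near 0.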
